A study of Mus musculus with 10 samples.

Results

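The genes described here are 8 members of clade A of the serpin family, measured in the livers of lactating mice: Serpina12, Serpina6, Serpina11, Serpina3a, Serpina1b, Serpina1c, Serpina10 and Serpina3n. Each was represented by every probe set annotated to that symbol and to no other, which gave 10 probe sets of the 45037 tested, and 8 of the 18193 named genes. The set was chosen by differences between the diets in these same 10 livers, so the diet differences of the members are given as a description and support nothing. Serpina12 and Serpina1b had 2 probe sets each, and the remaining genes had 1. Where a gene is given by a single value, it is that of its probe set with the highest mean over the 10 arrays. Values are log2 expression.

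Mice of the QSi5 strain ate a high glycaemic index diet (HGI, 5 mice) or a low glycaemic index diet (LGI, 5 mice), from pregnancy until lactation peaked, when the livers were removed. By weight the HGI diet was 51.4% glucose, with a gross energy of 15.6 MJ/kg. The LGI diet held 51.4% of the starch Hi-Maze, named high amylase starch in the design text, with 16.3 MJ/kg. An energy balance is also labelled, positive for every HGI mouse and negative for every LGI mouse, so that it and the diet cannot be told apart. The mice are numbered 1 to 5 within a diet, with 1 array each, and the sources used here do not give their age. P-values measure the spread between these mice.

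Serpins present a loop that a protease cuts, after which an inhibitory serpin changes shape and holds the protease in a dead complex. Clade A contains many of the serpins that the liver secretes into plasma, among them alpha-1-antitrypsin, antichymotrypsin-like inhibitors that respond to inflammation, and members that carry hormones in place of inhibiting a protease. Serpina12 encodes vaspin, first described as a product of visceral fat, and Serpina6 encodes corticosteroid-binding globulin, the plasma carrier of glucocorticoids.

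Pairs of arrays correlated at 0.986 to 0.996 over all probe sets. LGI 4 and HGI 1 stood apart from their diets (mean correlation 0.988 and 0.989, against 0.991 to 0.993 in the others). Values were least spread in HGI 1 (SD 2.16, against 2.26 to 2.31 in the others). HGI 1 was the lowest HGI array in 69.3% of the 7161 genes with a mean of at least 6. It was the array farthest from its diet's median in 52.1% of them, and LGI 4 in 45.6%. LGI 4 was the highest LGI array in 20 of 20 genes of acute phase proteins, the plasma proteins that the liver makes during inflammation, against 30.5% of the 7161 genes with a mean of at least 6. HGI 1 was the highest HGI array in 16 of those 20, against 3.77% of the 7161 genes. Saa2, encoding serum amyloid A, read 14.37 in LGI 4 and 6.02 to 6.85 in the other LGI livers. Neutrophil markers, 6 of 6 measured, had a summed level of 10.22 in LGI 4 and 6.87 to 6.99 in the other LGI livers, on the log2 scale. The summed hepatocyte markers, 7 of 8 measured, lay between 16.62 and 16.69 in HGI and between 16.48 and 16.68 in LGI, the lowest being LGI 4. The difference between 3' and 5' control probe sets, a sign of RNA integrity, gave a two-sided exact permutation p of 0.762 for Gapdh and 0.421 for Actb between the diets. In LGI 4 that difference was 2.27 for Actb, the highest of the 10 arrays (1.25 to 2.27), and 0.87 for Gapdh (0.29 to 0.99 over the 10). The part of RNA integrity in the values of LGI 4 was not tested. Differences of the members and of named genes are given without LGI 4 too where that moves them by over 1.5 times.

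Serpina12 was the member with the largest difference. Its brighter probe set, 1421092_at, read 7.24, 7.05, 7.61, 7.65 and 8.78 in HGI 1 to 5. The LGI livers 1 to 5 read 5.71, 5.26, 5.63, 5.37 and 5.36. Every HGI liver was above every LGI liver, and HGI 5 stood above the other HGI livers. The means were 7.66 ± 0.67 in HGI and 5.46 ± 0.19 in LGI (SD, n = 5 each), a 4.59-fold difference (log2 2.20 ± 0.25, difference ± SE; limma adjusted p = 0.0116). Without HGI 5 the difference was 1.92 (limma adjusted p = 2.31e-04), and without LGI 4 it was 2.17. It lay between 1.92 and 2.35 whichever single array was left out, and limma's adjusted p was then 0.0472 at most. In bulk tissue, a change in the number of cells that make a transcript and a change in RNA per cell cannot be told apart.

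The dimmer Serpina12 probe set, 1421091_at, read 2.49 to 2.88 in HGI and 2.34 to 2.65 in LGI. All 10 of these values lay below the median signal of every array (3.91 to 3.97), and the groups overlapped. The difference was 0.10 (limma adjusted p = 0.884), so the 2 probe sets of Serpina12 disagree, and the mean of both gave 1.15. No fold is given for the dimmer probe set. Adipocyte markers, 4 of 6 measured, included Adipoq (adiponectin), Lep (leptin) and Cidec (a lipid droplet protein), and the means of these 3 were lower than all 10 array medians. Adipoq read 2.43 to 2.68 in HGI and 2.36 to 2.77 in LGI. Fabp4, a fatty acid binding protein of fat cells and macrophages, stood at 1.08 (limma adjusted p = 0.276), and the summed adipocyte markers ran from 6.99 to 8.67 in HGI and from 6.67 to 7.32 in LGI. The part of Fabp4-expressing cells in the Serpina12 difference was not tested.

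Serpina6, the corticosteroid carrier, read 14.02, 13.33, 13.56, 12.74 and 14.06 in HGI 1 to 5. In LGI 1 to 5 it read 12.09, 11.79, 12.63, 10.58 and 12.94. The groups overlapped, since HGI 4 lay below LGI 5, and LGI 4 was the lowest of all. The means were 13.54 ± 0.54 in HGI and 12.003 ± 0.92 in LGI (SD, n = 5 each), a 2.90-fold difference (log2 1.54 ± 0.38, difference ± SE) that did not pass the threshold (limma adjusted p = 0.246). Without LGI 4 the difference was 1.18 ± 0.28 (2.27-fold; limma adjusted p = 0.184). Without both LGI 4 and HGI 1 it was 1.06.

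Serpina7, the thyroxine-binding globulin gene and the other hormone carrier of the clade, is not among the 8 members and lies outside their cluster. It read 5.93, 5.59, 5.76, 6.32 and 6.40 in HGI 1 to 5. Values in LGI 1 to 5 were 3.87, 5.09, 4.23, 8.21 and 4.19. LGI 4 was above every HGI liver, and the other 4 LGI livers were below every HGI liver. The difference was 0.88 over all arrays (limma adjusted p = 0.818) and 1.65 without LGI 4 (limma adjusted p = 0.0274). Without LGI 4, 0.0955% of all probe sets passed. LGI 4 was left out for this gene after its value was seen, so that p-value lends no support. With any other single array left out, limma's adjusted p lay between 0.753 and 0.934. LGI 4 was thus the lowest liver for Serpina6 and the highest for Serpina7.

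Serpina11, a secreted serpin of the same cluster, read 10.44, 10.56, 10.44, 10.40 and 10.89 in HGI 1 to 5. The LGI livers 1 to 5 read 9.58, 9.06, 9.61, 9.95 and 9.48. The groups did not overlap, and LGI 4 was the LGI liver nearest to HGI. The means were 10.55 ± 0.20 and 9.53 ± 0.32 (SD, n = 5 each), a 2.02-fold difference (log2 1.01 ± 0.15, difference ± SE; limma adjusted p = 0.0302). Leaving out single arrays gave 0.89 to 1.12, and limma's adjusted p stayed under the threshold in 3 of 10 such fits, with 0.115 the largest.

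Serpina3a belongs to the expanded mouse group related to antichymotrypsin. It read 4.60, 4.40, 4.61, 4.79 and 4.60 in HGI 1 to 5. In LGI 1 to 5 it read 3.77, 3.87, 3.85, 3.33 and 3.18. The groups did not overlap, but all 5 LGI values were below the median signal of every array, so no fold is given. The difference was 1.00 ± 0.14 (difference ± SE; limma adjusted p = 0.0217), with a range of 0.90 to 1.07 over single arrays left out, and limma's adjusted p was under the threshold in 5 of those 10 fits.

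**Figure D1:**
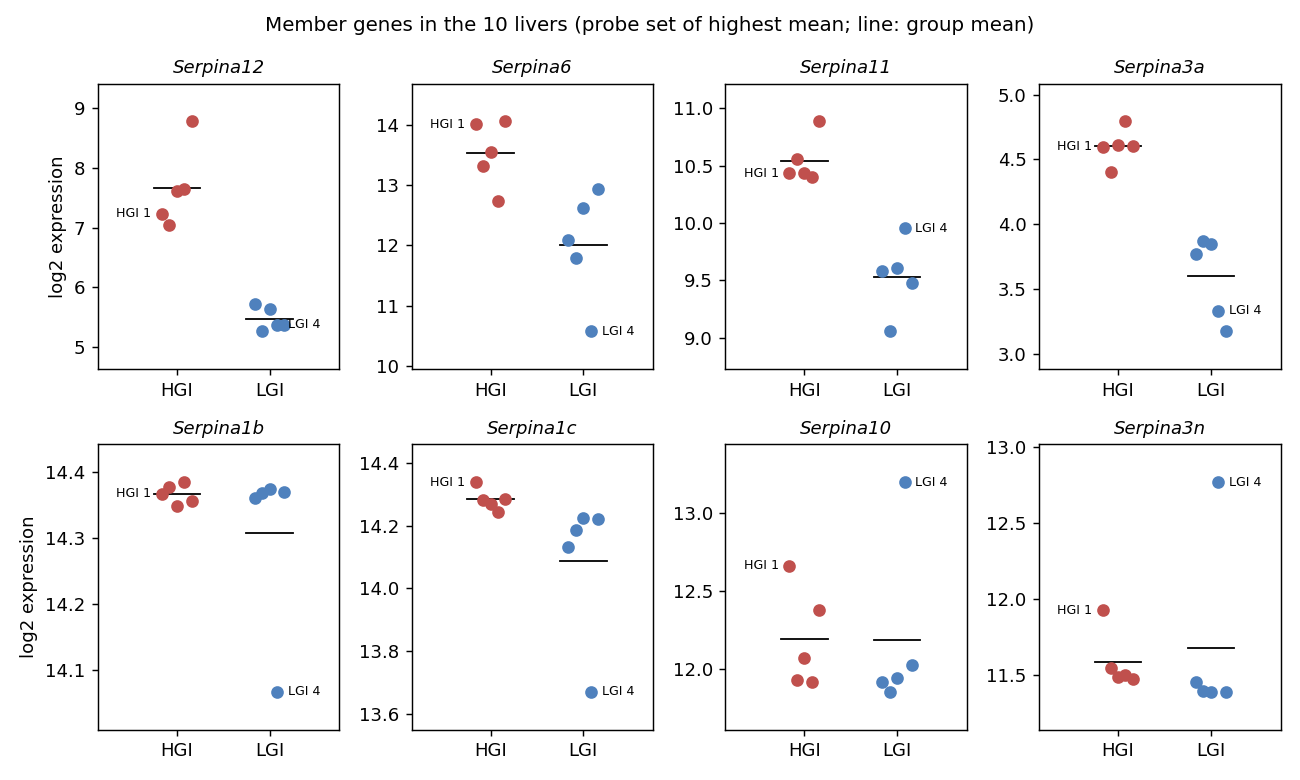
Log2 expression of the 8 member genes in each of the 10 livers; each panel has its own axis, points are livers, horizontal lines are the means of 5 livers, and HGI 1 and LGI 4 are labelled. Serpina12, Serpina11 and Serpina3a separate the diets, Serpina6 overlaps at HGI 4 and LGI 5, and in the lower panels LGI 4 lies apart from the other LGI livers.

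The stretches just upstream of the 3 members past the threshold are shown because those genes lie in 1 cluster and were all higher in HGI. Of the 8 members, 6 matched an entry in the RefSeq promoter table (GRCm38.p6), all on chromosome 12, and Serpina6 and Serpina10 are named without a sequence. Each line gives the 250 bases that end just before the annotated start, in the direction of transcription. Capitals mark matches to 6 short letter patterns that were searched on both strands. The Serpina12 stretch lies at chr12:104044444-104044693 (minus strand), that of Serpina11 at chr12:103989958-103990207 (minus strand, the first listed of its 2 starts) and that of Serpina3a at chr12:104112474-104112723 (plus strand).
Serpina12: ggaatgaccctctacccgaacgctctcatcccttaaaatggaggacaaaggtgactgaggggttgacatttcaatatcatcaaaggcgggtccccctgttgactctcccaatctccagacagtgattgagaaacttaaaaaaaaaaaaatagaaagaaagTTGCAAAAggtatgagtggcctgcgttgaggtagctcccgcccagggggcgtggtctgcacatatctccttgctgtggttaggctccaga
Serpina11: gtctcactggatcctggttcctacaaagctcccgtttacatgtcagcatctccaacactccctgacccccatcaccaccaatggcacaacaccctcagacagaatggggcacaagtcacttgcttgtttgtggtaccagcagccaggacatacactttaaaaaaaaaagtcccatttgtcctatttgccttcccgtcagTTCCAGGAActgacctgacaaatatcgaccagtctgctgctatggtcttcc
Serpina3a: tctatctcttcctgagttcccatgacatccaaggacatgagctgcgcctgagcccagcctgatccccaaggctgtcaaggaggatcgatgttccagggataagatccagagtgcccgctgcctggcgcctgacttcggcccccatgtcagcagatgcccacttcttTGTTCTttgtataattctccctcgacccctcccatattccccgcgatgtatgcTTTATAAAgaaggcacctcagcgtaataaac

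Serpina12 had 1 match, to the C/EBP pattern TTGCNNAA, 90 bases before the start. That pattern occurred in 9.55% of 27025 RefSeq stretches of the same kind, and Serpina1b held it too. Serpina11 had 1 match, to the STAT pattern TTCNNNGAA, 51 bases before the start, a pattern present in 7.18% of stretches. Serpina3a held the TATA box letters TATAAA on both strands, in overlapping matches that begin 31 and 29 bases before the start (12.97% of stretches), and the glucocorticoid receptor core AGAACA on the opposite strand (16.2% of stretches). AGAACA was also present in the stretches of Serpina1b, Serpina1c and Serpina3n. The part of these patterns in the diet differences was not tested. The FOXA pattern TGTTTAC (3.09% of stretches) and the E-box CACGTG (6.05%) were in 0 of the 6. No letter pattern was shared by the 3 printed stretches. The Serpina1b and Serpina1c stretches were 90.9% identical over their alignment, while the other pairs of the 6 ranged from 42.5% to 47.6%.

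Serpina1b and Serpina1c are copies of the alpha-1-antitrypsin gene, which encodes the main plasma inhibitor of neutrophil elastase. Their probe sets read close to the highest signal on any array (14.65 to 14.71), where the scale has little room to rise. The Serpina1b probe set 1418282_x_at read 14.35 to 14.38 in HGI, 14.36 to 14.38 in the LGI livers other than LGI 4, and 14.07 in LGI 4. Its difference was 0.06 (limma adjusted p = 0.923), and -0.0015 without LGI 4. The other Serpina1b probe set, 1451513_x_at, read 14.15 to 14.17 in HGI, 14.14 to 14.16 in 4 LGI livers and 13.75 in LGI 4 (difference 0.09, and 0.011 without LGI 4). Both probe sets therefore told the diets apart by less than the distance of LGI 4 from its own diet.

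Serpina1c read 14.34, 14.28, 14.27, 14.24 and 14.29 in HGI 1 to 5. Values in LGI 1 to 5 were 14.13, 14.19, 14.22, 13.67 and 14.22. The groups did not overlap, yet the lowest HGI liver (14.24) was only just above the highest LGI livers (14.22). The difference was 0.20 ± 0.10 (difference ± SE; limma adjusted p = 0.720), and 0.09 without LGI 4. Near-identical copies can share probes, so these values may not belong to 1 copy each. Another 2 probe sets are annotated to several Serpina1 genes and stay unassigned. The one listed with 2 genes differed by 0.19 (limma adjusted p = 0.679). It read 13.19 in LGI 4 and 13.46 to 13.59 in the other LGI livers. The one listed with 3 genes read 10.61 to 11.56 in HGI and 9.66 to 10.58 in LGI, without overlap, and differed by 0.58 (limma adjusted p = 0.495). LGI 4 was its lowest liver.

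Serpina10 encodes the protein Z-dependent protease inhibitor, which with protein Z inhibits coagulation factor X in its active form. It read 12.66, 11.92, 12.07, 11.91 and 12.38 in HGI 1 to 5. The LGI livers 1 to 5 read 11.91, 11.85, 11.94, 13.20 and 12.03. LGI 4 was the highest of all 10 livers, and the groups overlapped. The difference was 0.00 ± 0.24 (difference ± SE; limma adjusted p = 0.999), and 0.26 ± 0.14 without LGI 4 (limma adjusted p = 0.727). Its single probe set carries a suffix that marks probes shared with other transcripts.

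Serpina3n, an antichymotrypsin-like inhibitor and an acute phase gene of mouse liver, read 11.92, 11.55, 11.48, 11.50 and 11.47 in HGI 1 to 5. In LGI 1 to 5 it read 11.45, 11.39, 11.39, 12.77 and 11.39. LGI 4 was the highest liver and HGI 1 the next, and the remaining LGI livers all lay below the HGI livers. The difference was -0.09 ± 0.23 (difference ± SE; limma adjusted p = 0.965). Without LGI 4 it was 0.18 ± 0.10 (limma adjusted p = 0.734), and the groups no longer overlapped. In LGI 4, Serpina3n and Serpina10 were high where the acute phase genes were high, and the part of what raised those genes in these 2 values was not tested.

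**Figure D2:**
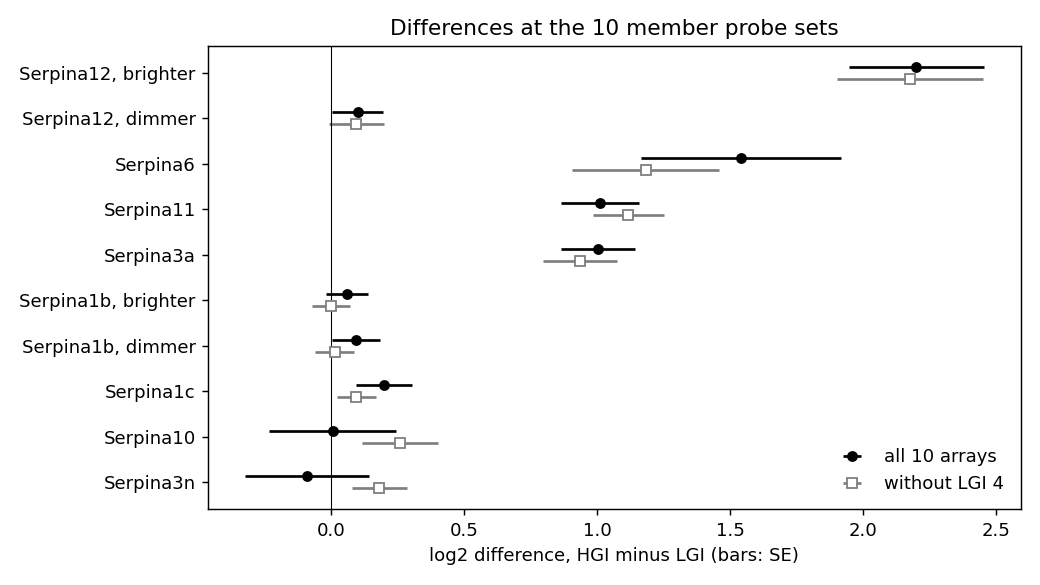
Log2 difference, HGI minus LGI, at the 10 member probe sets, with all 10 arrays (filled circles) and without LGI 4 (open squares); bars are SE. The brighter Serpina12 probe set, Serpina6, Serpina11 and Serpina3a lie between 0.94 and 2.20 with or without LGI 4, the dimmer Serpina12 probe set is near 0.10, and the Serpina3n and Serpina10 points move to the right without it.

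Over the members, 3 of 10 probe sets passed the threshold of an adjusted p under 0.05, all higher in HGI, where 0.0377% of all probe sets passed as higher, 0.0266% as lower and 0.0644% in either direction. Of the 8 genes, 3 passed as higher (Serpina12, Serpina11 and Serpina3a), against 0.0385% of all genes, and 0 as lower. The groups did not overlap, with HGI higher, at 4 of 10 probe sets (0.475% of all probe sets) and 4 of 8 genes (0.5% of all genes). The 4 were those of Serpina12, Serpina11, Serpina3a and Serpina1c. The median difference over the 8 genes was 0.60, against -0.03 over all genes, of which 7611 of 18193 had a difference above 0. Since the members were picked with this contrast known, these counts describe the list only.

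Among the 8 genes, LGI 4 was the farthest LGI liver from the median of its diet in 5, the highest in 3 and the lowest in 3. LGI 4 was the farthest in 45.6% of the 7161 genes with a mean of at least 6. Serpina3n, Serpina10 and Serpina11 were highest there, and Serpina6, Serpina1b and Serpina1c lowest.

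**Figure D3:**
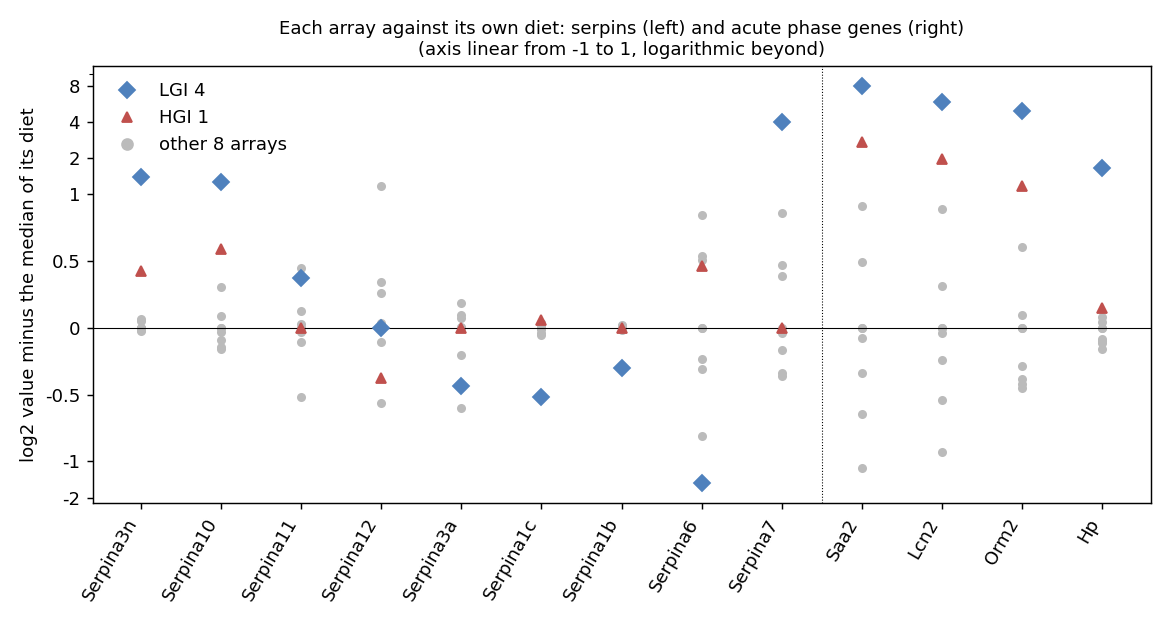
Log2 value of each liver minus the median of its diet for the 8 members, Serpina7 and 4 acute phase genes; diamonds are LGI 4, triangles HGI 1 and grey circles the other 8 arrays, on an axis linear from -1 to 1 and logarithmic beyond. LGI 4 lies above its diet for Serpina3n, Serpina10, Serpina7 and the acute phase genes, and below it for Serpina6, Serpina1b and Serpina1c.

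With each diet's mean subtracted, the 28 pairs of member genes were correlated over the 10 livers, and 5 pairs had an adjusted permutation p of Pearson's r under 0.05 (100000 permutations, adjusted over the 28 pairs). Livers were permuted across both diets, although the spread could differ between them (Serpina1b SD 0.015 in HGI and 0.13 in LGI). Values with a diet mean subtracted are also not independent, so these permutation p-values are only approximate. By Spearman's rho 0 pairs passed after adjustment and 6 before it, by permutation. Serpina10 and Serpina3n correlated at r = 0.93 (permutation p = 0.00327, adjusted 0.0229) and rho = 0.47 (permutation p = 0.179, adjusted 0.480), and r was -0.52 without HGI 1 and LGI 4, the 2 livers farthest from the median, with the diet means taken again over the livers kept. Serpina1b and Serpina3n had r = -0.94 (permutation p = 0.00131, adjusted 0.0183) and rho = -0.82 (permutation p = 0.00552, adjusted 0.0969), with r = 0.071 without LGI 3 and LGI 4. Serpina1b and Serpina10 had r = -0.88 (permutation p = 0.00586, adjusted 0.0328) and rho = -0.65 (permutation p = 0.0481, adjusted 0.225), with r = -0.35 without the same livers. Serpina6 and Serpina1c had r = 0.83 (permutation p = 0.00221, adjusted 0.0206) and rho = 0.76 (permutation p = 0.0147, adjusted 0.103), with r = 0.68 without LGI 4 and LGI 5. Serpina1b and Serpina1c, whose probes may be shared, had r = 0.97 (permutation p = 9.80e-04, adjusted 0.0183) and rho = 0.81 (permutation p = 0.00746, adjusted 0.0969), with r = -0.011 without LGI 3 and LGI 4. The 2 livers left out were those farthest from the median for the first gene named in each pair. All 5 values of r were smaller in size without those livers, and those of all pairs but Serpina6 and Serpina1c rest on them. Without LGI 4 alone, r was 0.080, 0.057 and -0.34 for Serpina1b with Serpina1c, Serpina3n and Serpina10. It was then 0.72 both for Serpina10 with Serpina3n and for Serpina6 with Serpina1c. Serpina12 gave no pair with an adjusted permutation p under 0.05, and its r with Serpina6 was 0.25 (permutation p = 0.474, adjusted 0.603).

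In the RefSeq gene order, used here for names and neighbours, the 8 members lie on chromosome 12 in a run of 28 Serpina genes and pseudogenes from Serpina10 to Serpina3n, with no other protein-coding gene between them. Of the 28, 13 had a probe set of their own, and 5 of those were not members: Serpina1f, Serpina9, Serpina4-ps1, Serpina5 and Serpina3i. The means of these 5 were lower than all 10 array medians, and 0 of 5 passed the threshold (limma; 0 also had an unadjusted p under 0.05), with differences from 0.00 to 0.15 and a smallest adjusted p of 0.745. Serpina12, at 2.20, has Serpina9 and Serpina4-ps1 as its neighbours, at 0.00 (-0.02 without LGI 4) and 0.09. Of the 10 protein-coding genes flanking the run, 5 on each side, 0 passed (limma; 0 also had an unadjusted p under 0.05), with differences from -0.17 to 0.10. The 4 largest differences were thus not adjacent: Serpina6 and Serpina11 were separated by the Serpina1 copies, and Serpina3a lay beyond Serpina12.

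**Figure D4:**
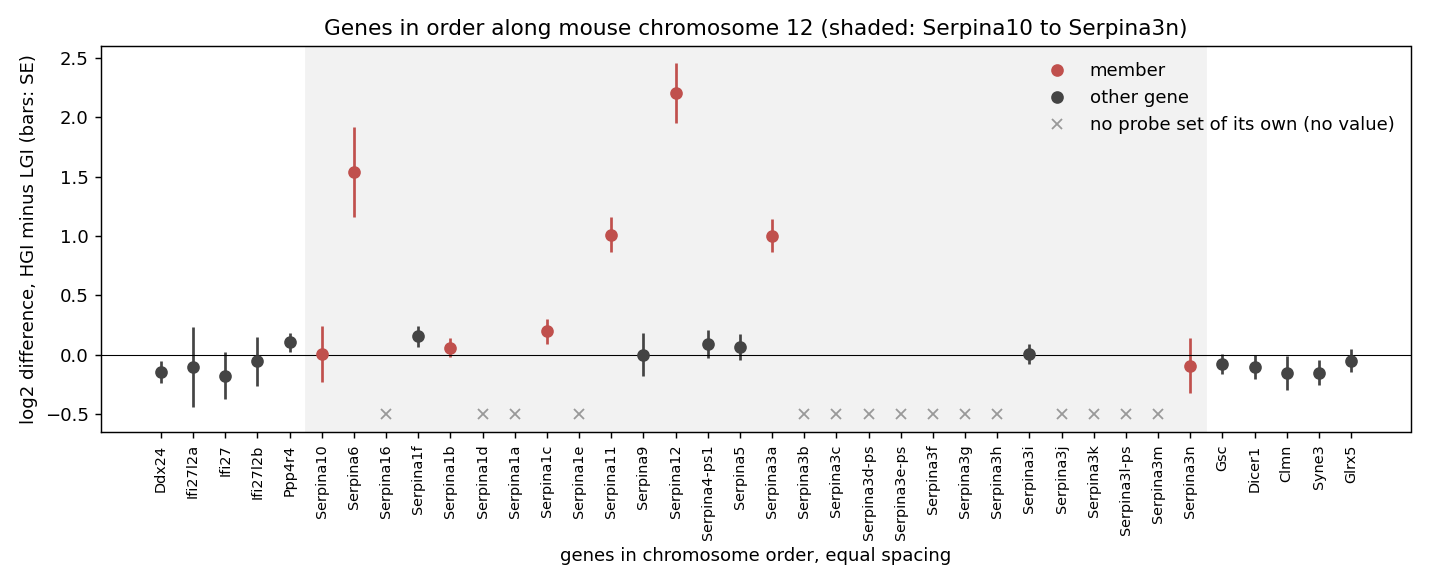
Log2 difference, HGI minus LGI (points, with SE bars), for genes in their order along mouse chromosome 12, evenly spaced; the shaded run goes from Serpina10 to Serpina3n, and crosses at the bottom edge mark genes with no probe set of their own and hence no value. Serpina6, Serpina11, Serpina12 and Serpina3a stand at 1.00 to 2.20, while the flanking genes lie between -0.17 and 0.10.

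Over all arrays no other serpin of the lists passed the threshold. Of 18 further clade A genes 6 had a probe set, and 0 passed (limma; 0 also had an unadjusted p under 0.05), where 0.0824% of all genes passed in either direction. Serpina1f, at 0.15, and Serpina4-ps1, at 0.09, had the smallest p beside Serpina7. Of 18 serpins of other clades 16 were measured and 0 passed (limma; 1 had an unadjusted p under 0.05), with a median difference of -0.02. Serpinb1a, an inhibitor of neutrophil proteases, stood at -0.65 (limma adjusted p = 0.228) at a dim probe set. Serpinh1, a collagen chaperone, stood at -0.28 (-0.14 without LGI 4), and Serpind1, heparin cofactor, at 0.11 (0.036 without LGI 4). Serpinc1, antithrombin, read 13.69 to 13.78 in HGI and 13.54 to 13.81 in LGI.

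Proteases and cofactors that clade A serpins act on were all measured (12 of 12), and 1 passed (limma; 4 had an unadjusted p under 0.05). The share of all genes with an unadjusted p under 0.05 was not counted. Counts at that level, in this and the other lists, are therefore a description only. Of all genes 0.0824% passed in either direction. F11, encoding coagulation factor XI, read 8.57, 9.24, 8.91, 8.90 and 9.06 in HGI 1 to 5. Values in LGI 1 to 5 were 8.07, 8.16, 8.32, 8.16 and 8.15. The groups did not overlap, with a difference of 0.76 ± 0.11 (difference ± SE; limma adjusted p = 0.0302), which was under the threshold in 3 of 10 fits with an array left out (largest adjusted p 0.115). F10, encoding factor X, stood at 0.24 (limma adjusted p = 0.509) and Proz, encoding protein Z, at 0.05. The median over the 12 was 0.12, with 9 differences above 0 (7611 of 18193 over all genes).

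Of 22 genes of glucocorticoid action and response 21 were measured, and 0 passed (limma; 2 had an unadjusted p under 0.05), with a median difference of -0.11. Nr3c1, the glucocorticoid receptor, read 7.90 to 8.47 in HGI and 7.85 to 8.24 in LGI. Hsd11b1, which regenerates active glucocorticoid in liver, read 12.68 to 12.88 in HGI, 12.71 to 12.81 in 4 LGI livers and 11.62 in LGI 4. Dusp1, a phosphatase gene induced by glucocorticoids and by stress, read 7.60, 9.15, 8.19, 7.80 and 7.71 in HGI 1 to 5. The LGI livers 1 to 5 read 7.23, 7.01, 6.92, 7.40 and 6.32, without overlap (difference 1.11, limma adjusted p = 0.246). Cdkn1a, a cell cycle inhibitor, stood at 0.94 and Tat, a classical glucocorticoid-induced enzyme of tyrosine breakdown, at -0.26, neither past the threshold. Fkbp5 and Tsc22d3, genes that glucocorticoids induce in many tissues, stood at -0.07 and 0.00 over all arrays and at -0.14 and -0.18 without LGI 4.

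Of 10 vaspin partners and other adipokines, all were measured and 0 passed (limma; 1 had an unadjusted p under 0.05), with 1 of 10 differences above 0 (7611 of 18193 over all genes) and a median of -0.07. Klk7, the kallikrein that vaspin inhibits, read 3.85 to 4.00 in HGI and 3.86 to 4.15 in LGI, near the array medians. Hspa5, a chaperone reported as a surface partner of vaspin, stood at -0.03 over all arrays and, with its sign turned, at 0.08 without LGI 4. Dnajc1, a cochaperone, stood at -0.21. Rarres2, encoding the adipokine chemerin, stood at -0.63 (limma adjusted p = 0.162), and Nampt, an enzyme of NAD synthesis, at -0.41.

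Liver transcription factors (10 of 12 measured) had 0 genes past the threshold (limma; 0 also had an unadjusted p under 0.05) and a median of -0.05. Onecut1 stood at 0.62, Nr1h4, the bile acid receptor, at -0.29 and Nr5a2 at -0.26 (-0.13 without LGI 4). Cebpb, which drives acute phase transcription, was highest in LGI 4 (10.50, against 9.23 to 9.68 in the other LGI livers). Plasma carriers of hormones and vitamins (7 of 8 measured) had 0 past (limma; 1 had an unadjusted p under 0.05), with Tcn2, the cobalamin carrier, at -0.33 and Afm, which binds vitamin E, at 0.29 (0.10 without LGI 4).

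Acute phase proteins (20 of 20 measured) had 0 genes past the threshold over all arrays (limma; 2 had an unadjusted p under 0.05) and a median of -0.13, which was 0.22 without LGI 4. Orm2 and Orm3, orosomucoid genes, stood at -2.15 and -1.47 over all arrays and at -1.15 and -0.74 without LGI 4. Without both HGI 1 and LGI 4 they passed as lower in HGI, at -1.42 and -0.82 (limma adjusted p = 0.0350 and 0.0391). In that fit 58 of the 45037 probe sets passed. Those arrays were left out after their high values for acute phase genes were seen, so these p-values lend no support. Cp, ceruloplasmin, stood at 0.26. Hp, haptoglobin, read 13.18 to 13.49 in HGI, 12.63 to 12.81 in 4 LGI livers and 14.39 in LGI 4. Its difference was 0.28, and 0.62 without LGI 4 (limma adjusted p = 0.0316), a fit in which 0.0955% of all probe sets passed. LGI 4 was left out for this gene after its value was seen, so that p-value lends no support either. Serpina3n, at 0.18 without LGI 4, was close to the list's median there.

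The genes most like the carrier and the adipokine were sought among 7022 named genes with a mean of at least 6, by Pearson correlation over the 10 livers, as a description. For Serpina6 the closest was Ghr, the growth hormone receptor (r = 0.99, and 0.98 without LGI 4). Ghr read 12.41, 11.91, 11.90, 11.62 and 12.47 in HGI 1 to 5. In LGI 1 to 5 it read 11.15, 10.92, 11.36, 10.05 and 11.46. The order of the livers was nearly that of Serpina6, with HGI 5 highest and LGI 4 lowest in both, and Ghr differed by 1.07 between the diets (limma adjusted p = 0.196). With the diet means subtracted r was 0.98, so the likeness also held among livers of the same diet. Lifr, the receptor of leukaemia inhibitory factor, came next (0.95, and 0.94 with diet means subtracted), followed by the desaturase gene Fads1 (0.91), the adhesion gene Cadm4 (0.90) and Spp2 (0.90). Without LGI 4, r was 0.93 for Lifr, 0.81 for Fads1, 0.79 for Cadm4 and 0.79 for Spp2. The lowest were Atg5, an autophagy gene (-0.95, and -0.91 without LGI 4), Ctsc, a lysosomal protease (-0.94 and -0.89), and the small GTPase gene Rit1 (-0.94 and -0.89).

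For Serpina12 the closest were Isg20, an exonuclease gene (0.94), Apoa4, an apolipoprotein (0.93), Bpgm, an enzyme that makes bisphosphoglycerate (0.93), the complement protease Cfi (0.91) and Vegfa, an angiogenic factor (0.91). Isg20 read 7.05 to 8.30 in HGI and 5.53 to 6.83 in LGI, without overlap, and HGI 5 was highest for both genes. The lowest were Sqor, a sulfide oxidising enzyme of mitochondria (-0.94), Triap1 (-0.94) and Prom1, a surface protein of progenitor and biliary cells (-0.93). With the diet means subtracted the closest were Thap4 (0.95), Ero1a (0.93), Smox (0.93), Rhoq (0.92) and Pcid2 (0.91), none of which was among the first 5 over all livers. HGI 5 was the highest HGI liver for Serpina12 and for all 5 of these genes. Without HGI 5, r was 0.89 for Thap4, 0.85 for Ero1a, 0.66 for Smox, 0.56 for Rhoq and 0.92 for Pcid2.

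**Figure D5:**
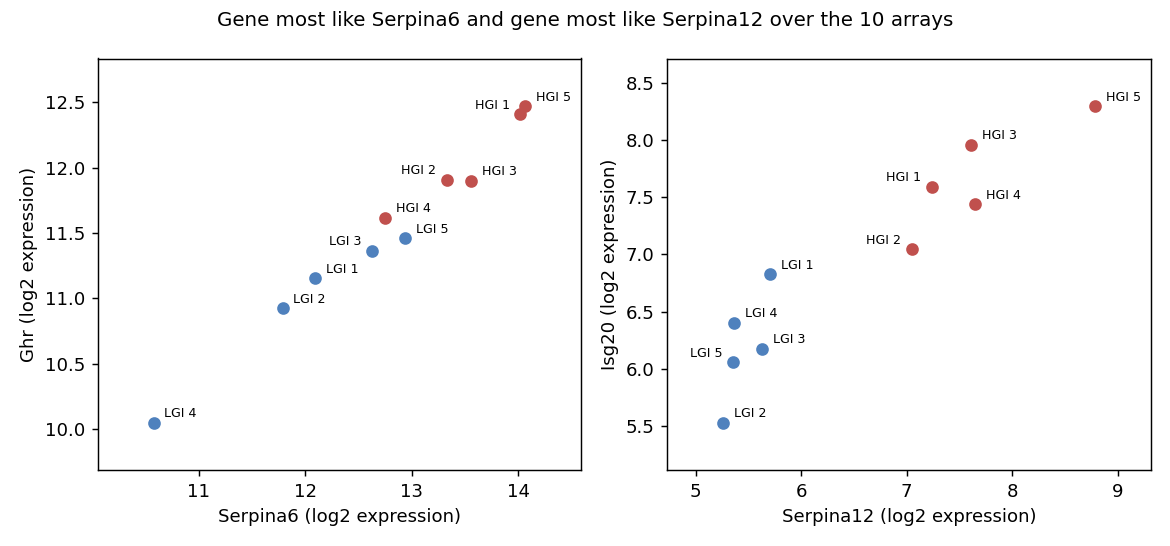
Log2 expression of Ghr against Serpina6 (left) and of Isg20 against Serpina12 (right), 1 point per liver, red for HGI and blue for LGI. Ghr follows Serpina6 from LGI 4 at the lower left to HGI 5 at the upper right, and the Isg20 points fall into the 2 diets.

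Markers of other liver cells were measured as lists. Erythroid markers (4 of 7 measured, 2 with means below every array's median) were all above 0, with a median of 0.72, a summed level of 8.94 to 10.31 in HGI and 7.51 to 9.37 in LGI, and Slc4a1, the red cell anion exchanger, at 2.25 (limma adjusted p = 0.0625). Kupffer cell markers (8 of 8) were all above 0, with a median of 0.28 and summed levels of 10.89 to 11.73 and 10.64 to 11.38. HGI 5, the liver with the highest Serpina12, was the highest HGI array in 7 of the 8 (26.1% of the 7161 genes), and LGI 4 the highest LGI array in 7 of the 8 (30.5% of those genes). Liver endothelial markers (8 of 8) were also all above 0, with a median of 0.20 and summed levels of 9.96 to 10.56 and 9.77 to 10.30. Of these 20 genes 0 passed the threshold by limma, where 0.0824% of all genes passed in either direction, and 5 had an unadjusted p under 0.05. Over all genes, 7611 of 18193 differences were above 0, with a median of -0.03. Stellate, cholangiocyte, adipocyte, lymphocyte, neutrophil, mammary epithelial and pancreatic acinar markers had 0 genes past the threshold (limma; 4 had an unadjusted p under 0.05) and medians from -0.09 to 0.06, and those of hepatocytes a median of 0.03. The share of these cells in the differences of Serpina12, Serpina6, Serpina11 and Serpina3a was not tested.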

How the data were processed

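Liver RNA of 10 mice, 5 per diet, was read on Affymetrix arrays. The authors' deposited values are log2 expression per probe set. The submitters' processing notes name R 2.6.1 and RMA, a method that subtracts background, puts all arrays on the same distribution and summarises the probes of each set. The deposited values still differed in spread, with an SD of 2.16 in HGI 1 and 2.26 to 2.31 in the other arrays. No genome build is named.

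Of 45101 probe sets, 64 Affymetrix controls were left out. Symbols came from the platform annotation: 34945 probe sets had 1 symbol, 932 several and 9160 none. RefSeq tables (GRCm38.p6) gave 34741 matching gene IDs, gene order and upstream sequence.

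HGI was compared with LGI by limma 3.58.1 in R 4.3.3, without covariates, with Benjamini-Hochberg adjustment over all 45037 probe sets and a threshold of 0.05. The smallest two-sided exact permutation p for 5 against 5 is 0.00794. The number of arrays limits the precision. The procedure was tested on simulated data, drawn as independent normal values for each probe set. Arrays that stand apart from their diet, as in these data, were not simulated, so the test does not cover them. Members and gene lists were chosen with earlier results of these data known. Named were all member probe sets, in each list the genes past the threshold or otherwise the 3 of smallest p, the 5 closest and 3 most opposite genes of Serpina12 and Serpina6, and chromosome neighbours; other named genes were chosen after their values were seen.

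Mice with the same number were not treated as pairs: correlations of their deviations from the diet mean lay between -0.05 and 0.07, and 0 of 10 arrays correlated best with its own number. Alternatives were filters on dim probe sets, another quantile normalization, array weights, median centring, a robust fit with a variance trend, a replicate block, 1 probe set per gene and leaving out arrays. Leaving out HGI 1 and LGI 4 together was added after seeing the data, as were all alternatives for list genes and correlations without HGI 5.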

Additional observations from a re-analysis of the deposited data

Results flagged for a closer look

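In each diet, the highest or lowest of the 5 livers was compared with the rest, and 15 of 62 groups of 5 had an end value whose gap to its neighbour was over 0.71 of the whole range, Dixon's critical value for 5 samples. Chance gives about 1 in 20 such groups, but these groups share the same arrays and are not independent. Of the 15, 11 were LGI 4, 2 were HGI 1 and 2 were LGI 1. By the same rule, LGI 4 was flagged in 8.60% of the 7161 genes with a mean of at least 6, HGI 1 in 6.17% and LGI 1 in 1.02%. LGI 4 and HGI 1 thus stood apart in many other genes too, and the count of 15 is a description only.

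Among the members, LGI 4 was low for both Serpina1b probe sets (14.07 against 14.36 to 14.38, and 13.75 against 14.14 to 14.16 in the other LGI livers) and for Serpina1c (13.67 against 14.13 to 14.22). It was high for Serpina10 (13.20 against 11.85 to 12.03) and Serpina3n (12.77 against 11.39 to 11.45). HGI 1 was high for Serpina3n (11.92 against 11.47 to 11.55 in the other HGI livers) and for the dimmer Serpina12 probe set (2.88 against 2.49 to 2.58).

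Among the list genes, LGI 4 was high for Serpina7 (8.21 against 3.87 to 5.09), Orm2 (12.52 against 7.15 to 8.20) and Orm3 (8.62 against 4.79 to 5.23). It was low for Serpind1 (11.37 against 11.69 to 11.77), Rarres2 (10.79 against 11.13 to 11.22) and Afm (11.28 against 12.14 to 12.31). LGI 1 was low for Dnajc1 (7.57 against 7.89 to 8.001) and Tcn2 (11.10 against 11.27 to 11.32).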

How the results depend on the processing

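The 3 member probe sets past the threshold became 2 with a mean log2 of at least 6, which leaves out Serpina3a, and 1 to 3 with single arrays left out: 1 without HGI 4, HGI 5, LGI 2, LGI 3 or LGI 5. Over all probe sets the count of 29 was 64 with array weights, 17 median centred, 63 quantile normalized again, 58 without HGI 1 and LGI 4, and 5 to 49 with single arrays left out. The list gene past the threshold, F11, was joined by others without LGI 4 (3 in all) and without HGI 1 and LGI 4 (5), and the count ran from 0 to 3 with single arrays left out, being 0 without HGI 2, HGI 4, HGI 5, LGI 1, LGI 2, LGI 3 or LGI 5. The sign turned for Serpina1b without LGI 4 (-0.0015) and without HGI 1 and LGI 4 (-0.0016), and for Serpina3n without LGI 4 (0.18) and without both (0.10). With single arrays left out Serpina1b ran from -0.0015 to 0.0755, Serpina3n from -0.18 to 0.18 and Serpina10 from -0.11 to 0.26, the last below 0 without HGI 1, HGI 5, LGI 1, LGI 2, LGI 3 or LGI 5. The causes of these moves were not tested. With the replicate number as a block, which the data do not bear out as a pairing, 33 probe sets and 2 member probe sets (Serpina12 and Serpina6) passed, with limma adjusted p of 0.0391 for Serpina6, 0.0761 for Serpina11 and 0.0670 for Serpina3a. Dim signal limits Serpina3a and the second Serpina12 probe set, and signal near the top of the scale limits Serpina1b and Serpina1c.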

Other observations

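Genes of neutrophils and of hepatic stress, chosen after their values were seen, varied between single livers beside the serpins. Prtn3, encoding proteinase 3 of neutrophils, a protease that alpha-1-antitrypsin inhibits, read 9.94 in LGI 4 and 4.24 to 4.77 in the other LGI livers. In HGI it read 7.62 in HGI 1 and 4.89 to 6.18 in the others. S100a8, a neutrophil calcium-binding protein, read 8.92 in LGI 4 and 3.95 to 4.28 in the other LGI livers. Mt2, a metallothionein induced by glucocorticoids, metals and inflammation, read 13.01 in LGI 4 and 9.85 to 10.76 in the other LGI livers. Hamp, encoding the iron hormone hepcidin, read 8.08 in LGI 4 and 3.52 to 4.11 in the others.

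With diet means subtracted, the lowest correlations with Serpina12 over the 10 livers were those of the major urinary protein genes Mup5 (r = -0.84) and Mup10 (r = -0.82), given as a description. Both rest on HGI 5: without it r was 0.12 for Mup5 and 0.040 for Mup10. Mup10 read 3.59 in HGI 5, the liver with the highest Serpina12, 5.85 to 6.60 in the other HGI livers and 7.13 to 8.20 in LGI. Major urinary protein genes are near-identical copies, so probes may be shared between them.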
